A study of Mus musculus with 4 samples.

Results

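The Nanog cluster is a stretch of mouse chromosome 6 in which genes switched on in pluripotent cells lie side by side. Its Sox2 peaks were taken from ChIP-exo lists as all peaks whose centre lay in mm10 chr6:122250000-122800000. This block of 550 kb holds Phc1, Gdf3, Dppa3, Nanog and all of Slc2a3 but its upper end. The block held 39 of the 29255 listed peaks: 17 of endogenous Sox2, 8 of Halo-Sox2, 0 of Halo-Sox2M and 14 of Halo-Sox2D. In ChIP-exo an exonuclease chews the precipitated fragments back to the protein crosslinked to them, and each peak then marks a border of binding within a few bases. The 4 libraries were made from D3 mouse embryonic stem cells, 1 per protein: endogenous Sox2, isolated with an anti-Sox2 antibody, and 3 fusions of Sox2 to HaloTag, isolated on HaloLink resin. Halo-Sox2 is the fusion of the wild-type protein. Halo-Sox2M carries changes that the labels write as M47G, F50 and M51G, the middle one without its new residue, and Halo-Sox2D keeps Sox2 residues 1 to 120. The labels do not say which promoter drives the fusions, at what level they are made or whether the cells that carry them still make untagged Sox2. The identity of the cells could not be checked against marker genes, since the lists hold peak positions and no expression. Each group is a single library, so differences between libraries lack a check by replicates and carry no p-value.

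Sox2 binds DNA through its HMG box, often next to the POU factor Oct4, on joined sites in the enhancers and promoters of pluripotency genes, and Nanog, a homeodomain factor that sustains self-renewal, is a classic target of that pair. Dppa3 (also called Stella or PGC7) protects DNA methylation in the early embryo, and Gdf3 is a secreted ligand of the TGF-beta family. Phc1 is a subunit of Polycomb repressive complex 1, and Slc2a3 encodes the glucose transporter GLUT3. Distal enhancers on both sides of Nanog have been described in embryonic stem cells.

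The Nanog promoter is shown here because the peaks of endogenous Sox2 and Halo-Sox2 overlapped on a joined Sox-Oct sequence in it. The sequence is from RefSeq (GRCm38.p6, the coordinates of mm10), plus strand, chr6:122707239-122707488, the 250 bases before the first annotated start of Nanog at 122707489. Capitals mark the joined letters (CATTGT, then any base, then ATGCAAA), which were found on the minus strand and which contain the Sox letters ACAATG on the plus strand. The letters of the Halo-Sox2 peak (122707402 to 122707420) and of the endogenous Sox2 peaks (122707411 to 122707422, 122707443 to 122707452 and 122707457 to 122707475) follow on their own lines.
Nanog promoter: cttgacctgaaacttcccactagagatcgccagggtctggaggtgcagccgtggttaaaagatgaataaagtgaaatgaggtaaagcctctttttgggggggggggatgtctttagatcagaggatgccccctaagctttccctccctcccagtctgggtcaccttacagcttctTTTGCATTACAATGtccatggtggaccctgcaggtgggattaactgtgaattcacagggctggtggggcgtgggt
Halo-Sox2 peak: cttacagcttctTTTGCAT
Endogenous Sox2 peak on the joined letters: tctTTTGCATTA
Endogenous Sox2 peak in the middle: gcaggtggga
Endogenous Sox2 peak nearest the start: ctgtgaattcacagggctg

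The joined letters lay at chr6:122707414-122707427, 75 to 62 bases before the first start of Nanog. The endogenous Sox2 peak covered 9 of these 14 bases, and its centre lay 4.0 bases from the middle of the letters. The Halo-Sox2 peak covered 7 of them, with its centre at 9.5 bases. Both peaks therefore touched the octamer-like end of the element, TTTGCAT, and the overlap between them was 10 bases. The other endogenous Sox2 peaks at Nanog covered none of the letters. Of these, 2 lay closer to the start, with centres 27.0 and 45.5 bases from the middle of the letters, and the last (122707585 to 122707589) lay 96 to 100 bases after the first start. Halo-Sox2D and Halo-Sox2M had no centre in either of the 2 promoter windows that RefSeq gives for Nanog.

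The exact joined letters are rare. Of 32851 promoter windows of 300 bases on chromosomes 1 to 19, X and Y, 2 held them (0.00609%), and both were windows of Nanog, which has starts at 122707489 and 122707565. The letters were chosen with the published Nanog element in mind, so their rarity describes this spelling of the site and nothing about other sites that differ by a base. The shorter Sox letters ACAATG, searched on both strands, stood in 12.6% of all windows, in 41 of the 155 windows with an endogenous Sox2 centre (26.5%), in 13.3% of the 241 with a Halo-Sox2 centre, in 14.6% of the 1466 with a Halo-Sox2D centre and in 5 of the 78 with a Halo-Sox2M centre (6.41%). The octamer letters ATGCAAAT stood in 1.74% of all windows and not in the windows of Nanog. Windows of the same gene can overlap, as the 2 of Nanog do, so a sequence can count more than once in these shares. The windows of Phc1, Rimklb, Apobec1 and 1700063H04Rik, the other genes of the block with an entry in the table, held none of these 3 sets of letters and no peak centre.

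Peaks were unevenly spread over the genes of the block. When each peak was given to its nearest protein-coding gene, Phc1 had 13 peaks over the 4 libraries, Nanog 9, Slc2a3 8, Dppa3 4 and Gdf3 1. The 4 remaining peaks were nearest to other genes: Rimklb had 3 and M6pr, the cation-dependent mannose 6-phosphate receptor, had 1. Endogenous Sox2 thus had peaks at 4 of the 5 named genes, Halo-Sox2 at 3, Halo-Sox2D at all 5 and Halo-Sox2M at none. Over all 21887 protein-coding genes, 14.9% were the nearest gene of an endogenous Sox2 peak, 17.2% of a Halo-Sox2 peak, 32.5% of a Halo-Sox2D peak and 3.35% of a Halo-Sox2M peak. The block was chosen with earlier results of these data in view, so these counts describe its genes and do not test them.

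**Figure D1:**
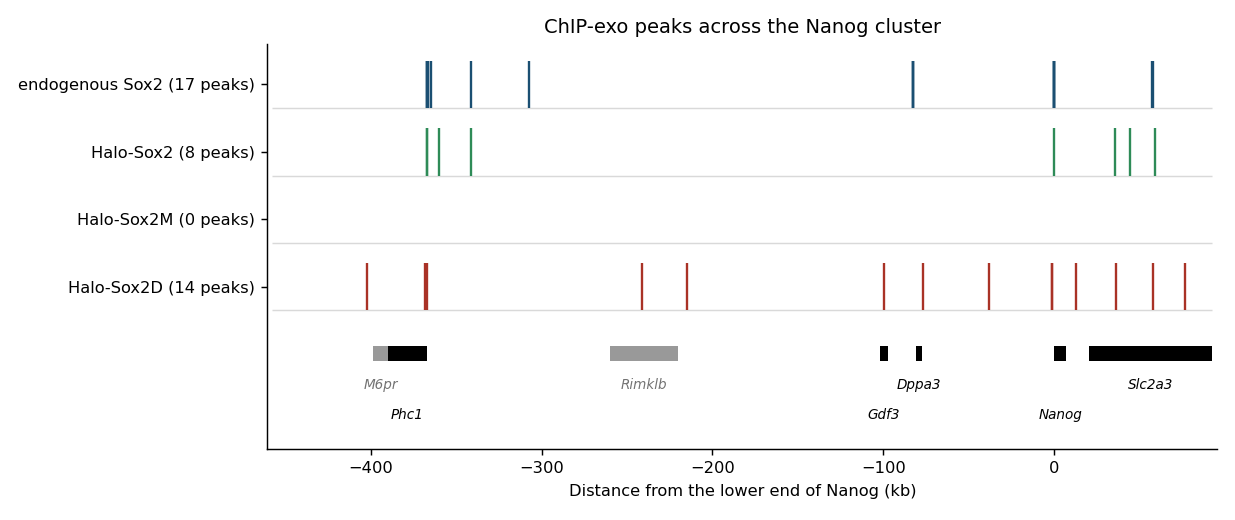
Peak centres of the 4 libraries across the block (vertical strokes, 1 row per library), by distance in kb from the lower end of Nanog, above the protein-coding genes nearest to a peak (black for the 5 named genes, grey for M6pr and Rimklb). Strokes of endogenous Sox2 and Halo-Sox2 meet beside Phc1 and at Nanog, the 14 Halo-Sox2D strokes are spread over the block, and the Halo-Sox2M row is empty.

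At Nanog (chromosome 6, 122707489 to 122714633) the libraries fell into separate patterns. Endogenous Sox2 had 4 peaks there, all in the 188 bp around the first start that also held the only Halo-Sox2 peak nearest to this gene. Halo-Sox2D had 4 peaks and none in the promoter: 122669557 to 122669568 lay 37.9 kb below the gene, 122706002 to 122706021 and 122706020 to 122706021 lay 1.48 and 1.47 kb below it, and 122720170 to 122720177 lay 5.54 kb above it. For the Halo-Sox2D peak at 37.9 kb, the nearest annotated gene of any kind is Gm8460. The Halo-Sox2D peaks at 1.48 and 1.47 kb overlap each other by 2 bp, so they mark 1 place. The counts of 4 for endogenous Sox2 and 4 for Halo-Sox2D thus come from different places, 1 for endogenous Sox2 and 3 for Halo-Sox2D. Different places were also the usual state for this pair. Over the genome, an endogenous Sox2 centre lay within 500 bp of 13.9% of the Halo-Sox2D peaks (14.3% in the block). In the other direction the share was 36.1% (35.3% in the block). The separation at Nanog is therefore not special to this gene. Whether the truncated protein is absent from the promoter cannot be read from these lists, which record called peaks without read numbers.

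Phc1 (122317731 to 122340227, minus strand, start at 122340227) held the place with most peaks in the block, which was also its only place with 3 libraries. It ran over 627 bp upstream of the start, from 122340641 to 122341267, with 5 endogenous Sox2 peaks, 2 Halo-Sox2 peaks and 1 Halo-Sox2D peak. At 0.466 to 0.468 kb upstream, peaks of endogenous Sox2 (122340689 to 122340697), Halo-Sox2 (122340691 to 122340699) and Halo-Sox2D (122340692 to 122340698) lay on each other. The Halo-Sox2 and Halo-Sox2D centres were 0 bp apart, and the endogenous Sox2 centre was 2.0 bp from both. A second meeting point lay 0.416 to 0.419 kb upstream, where the endogenous Sox2 (122340642 to 122340651) and Halo-Sox2 (122340641 to 122340646) centres were 3.0 bp apart. The distance between the meeting points was 46.5 bp in the endogenous Sox2 list and 51.5 bp in the Halo-Sox2 list. Halo-Sox2D had only the upper of them.

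The remaining peaks given to Phc1 were scattered. Endogenous Sox2 had further peaks 0.520, 0.547 and 1.04 kb upstream within the same place, and another 2.39 kb upstream. Halo-Sox2 had a peak of its own 7.09 kb upstream (122347316 to 122347323). Halo-Sox2D had a peak of its own inside the gene, 0.762 kb from its start (122339455 to 122339474). Endogenous Sox2 (122366480 to 122366494) and Halo-Sox2 (122366368 to 122366379) also shared a place 26.3 and 26.1 kb above Phc1, where their centres were 113.5 bp apart and the peaks did not overlap. The nearest annotated gene of any kind to that place is the long noncoding RNA gene 1700063H04Rik.

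**Figure D2:**
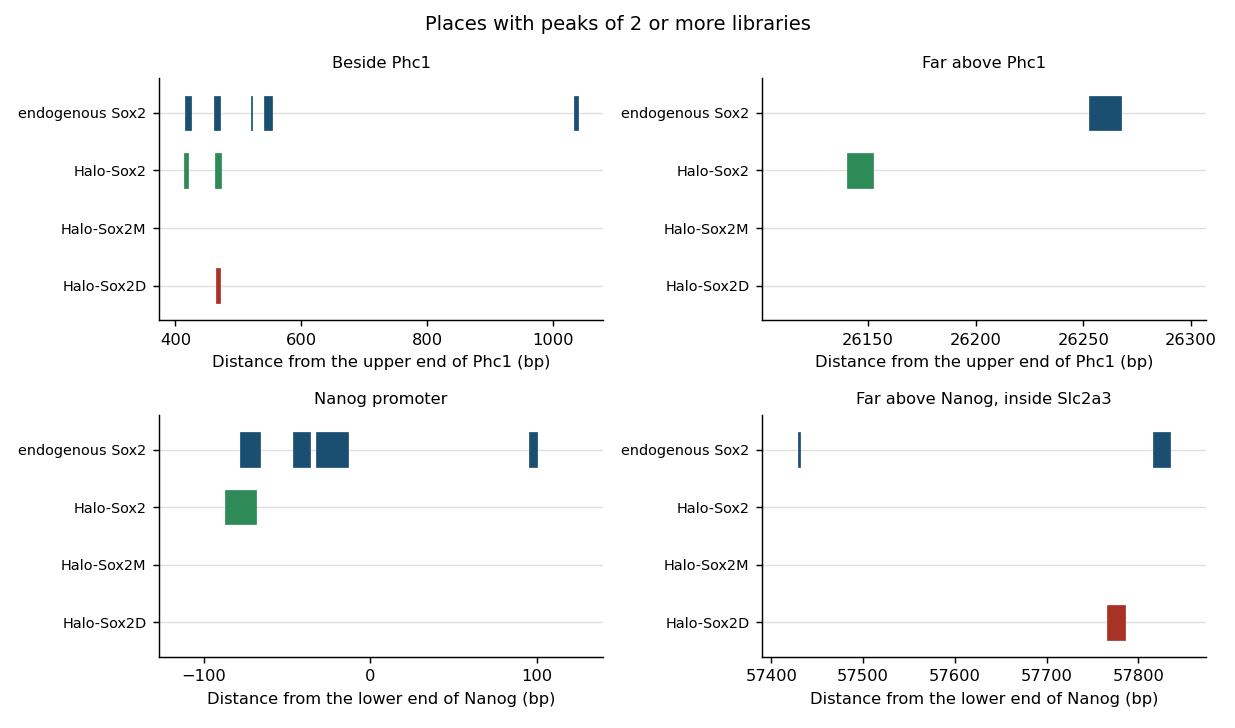
The 4 places of the block with peaks of at least 2 libraries, each peak drawn to scale as a box over its bases, by distance in bp from the upper end of Phc1 or the lower end of Nanog. Peaks of 3 libraries stack at one position beside Phc1, those of endogenous Sox2 and Halo-Sox2 overlap in the Nanog promoter, and those of the other 2 places lie near each other without overlap.

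Dppa3 (122626424 to 122630271) had 3 endogenous Sox2 peaks in a tight group of 76 bp, at 122624614 to 122624617, 122624660 to 122624663 and 122624680 to 122624689, which lay 1.81, 1.76 and 1.74 kb below the gene. No other library had a peak in this group. The only other peak at Dppa3 was of Halo-Sox2D, 0.337 kb above the gene (122630605 to 122630610). Gdf3 (122605403 to 122610087) had 1 peak as nearest gene, of Halo-Sox2D and inside the gene (122608117 to 122608120). The endogenous Sox2 group below Dppa3 lies within 20 kb of Gdf3 as well, so in windows of that width Gdf3 also counts 3 endogenous Sox2 peaks. The lists cannot say which of these neighbours a peak serves.

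Slc2a3 is annotated from 122727809 to 122802363, a span that takes in model transcripts and runs past the upper bound of the block (122800000). All 8 of its peaks in the block lay inside it. Peaks above that bound are not among them. With a shorter gene some of these peaks could lie outside it or near its end, which was not tested. The place shared by endogenous Sox2 and Halo-Sox2D lay 57.4 to 57.8 kb above the lower end of Nanog. The endogenous Sox2 peaks there (122764919 to 122764920 and 122765305 to 122765323) had centres 345.0 and 49.5 bp from the centre of the Halo-Sox2D peak (122765255 to 122765274). Halo-Sox2 had its nearest peak at 59.2 kb (122766636 to 122766650), outside that place. It had 2 further peaks in the gene at 35.4 kb (122742836 to 122742855) and 44.3 kb (122751806 to 122751812), and Halo-Sox2D had 2 at 36.1 kb (122743607 to 122743617) and 76.3 kb (122783812 to 122783813). The peaks at 35.4 and 36.1 kb lay 766.5 bp apart and count as separate places. The 3 Halo-Sox2 peaks of Slc2a3 therefore had no partner within 500 bp in another library.

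**Figure D3:**
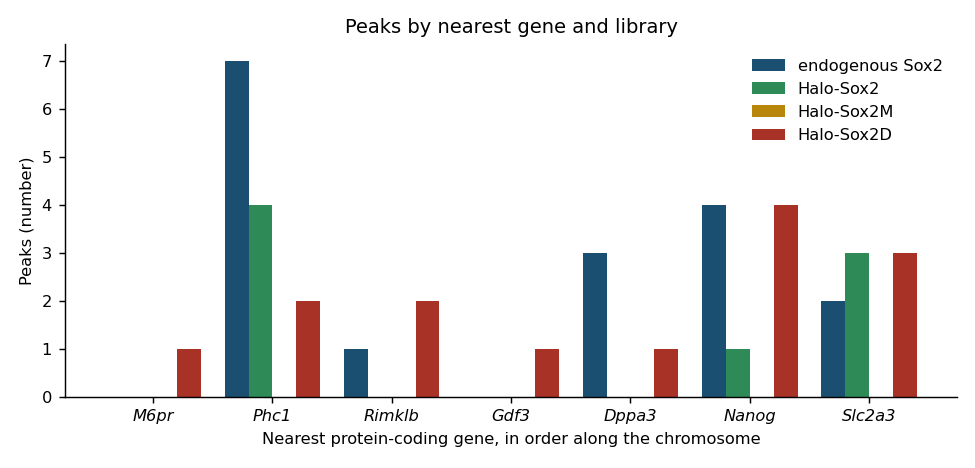
Number of peaks (bars from 0) by nearest protein-coding gene, in order along the chromosome, for each library. Genes with no peak are left out, and endogenous Sox2 leads at Phc1 with 7 peaks and at Dppa3 with 3, while Gdf3 and M6pr have Halo-Sox2D peaks alone.

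Rimklb, which encodes an ATP-grasp ligase, had 2 Halo-Sox2D peaks, inside it (122466530 to 122466541) and 5.59 kb above it (122492650 to 122492657). It was also the nearest protein-coding gene to an endogenous Sox2 peak 46.9 kb below it (122400399 to 122400415). The nearest annotated gene of any kind to that peak is 1700063H04Rik. The M6pr peak was of Halo-Sox2D, 3.48 kb below the gene (122305240 to 122305241). In all, 3 of the 14 Halo-Sox2D peaks, 1 of the 17 endogenous Sox2 peaks and 0 of the 8 Halo-Sox2 peaks were nearest to a gene other than the 5 named.

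When centres within 500 bp were joined over all libraries, the 39 peaks gave 22 places. Of these, 18 held 1 library, 3 held 2 libraries and 1 held 3. The share with 2 or more libraries was 18.2% (95% Wilson interval 7.31 to 38.5%), against 12.8% of the 19477 places on chromosomes 1 to 19, X and Y, a background that lies within the interval. Endogenous Sox2 and Halo-Sox2 met at 3 places (both of Phc1 and the Nanog promoter), endogenous Sox2 and Halo-Sox2D at 2 (beside Phc1 and in Slc2a3), and Halo-Sox2 and Halo-Sox2D at 1 (beside Phc1).

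Counted by peaks, 9 of the 17 endogenous Sox2 peaks had a Halo-Sox2 centre within 500 bp (52.9%, 31.0 to 73.8%, against 32.4% over the genome), and 6 had a Halo-Sox2D centre (35.3%, 17.3 to 58.7%, against 36.1%). Of the 8 Halo-Sox2 peaks, 4 had an endogenous Sox2 centre (50%, 21.5 to 78.5%, against 28.3%) and 2 had a Halo-Sox2D centre (25.0%, 7.15 to 59.1%, against 25.0%). Of the 14 Halo-Sox2D peaks, 2 had an endogenous Sox2 centre (14.3%, 4.01 to 39.9%, against 13.9%) and 1 had a Halo-Sox2 centre (7.14%, 1.27 to 31.5%, against 11.2%). Each of these 6 backgrounds over all peaks lies within the interval of the block. The first depends on the setting: outside stretches of 100 kb with 15 or more peaks in a library, 29.8% of endogenous Sox2 peaks had a Halo-Sox2 centre within 500 bp, just below the interval of the block, and within 1000 bp the share was 58.8% in the block (36 to 78.4%) against 34% of all peaks. Of the 9 endogenous Sox2 peaks near a Halo-Sox2 centre, 8 came from 2 places, so the interval is too narrow. Since Halo-Sox2M had no peak in the block, no peak of the block had a Halo-Sox2M centre within 500 bp. Over the genome 6.88, 8.18 and 2.90% of endogenous Sox2, Halo-Sox2 and Halo-Sox2D peaks had one, and outside the peak-rich stretches, which the block does not touch, 2.80, 3.04 and 1.23%.

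The number of peaks and the number of places ranked the libraries differently. The 17 endogenous Sox2 peaks lay in 7 places, or 2.43 peaks per place, against 1.5 over the genome. The 8 Halo-Sox2 peaks also lay in 7 places (1.14 per place, genome 1.19), and the 14 Halo-Sox2D peaks lay in 13 (1.08, genome 1.14). Endogenous Sox2 and Halo-Sox2 thus had equally many places in the block although their peak numbers differed. The difference came from close groups: 10 of the 17 endogenous Sox2 peaks had another of the same library within 100 bp (58.8%, 36 to 78.4%), against 2 of 8 for Halo-Sox2 and 2 of 14 for Halo-Sox2D. The same order held over the genome, with 44.3% of endogenous Sox2, 19% of Halo-Sox2 and 13.2% of Halo-Sox2D peaks. Antibody and resin, depth and calling cannot be told apart here from the protein itself.

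**Figure D4:**
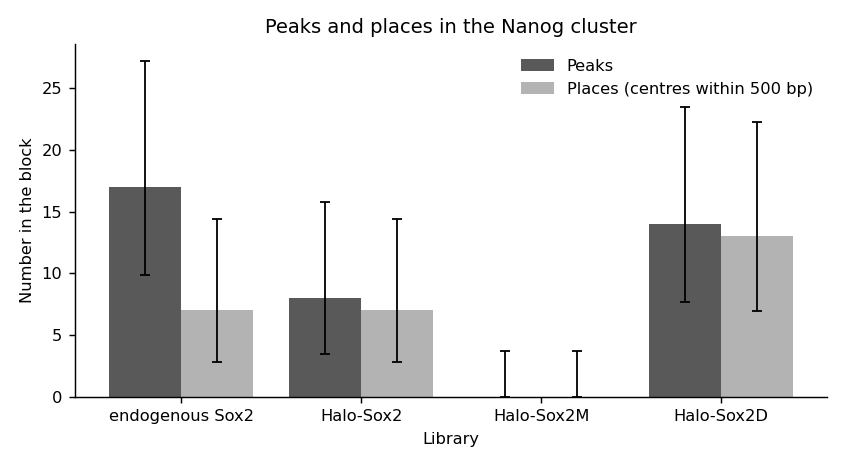
Peaks (dark bars) and places of centres within 500 bp (light bars) in the block for each library, from 0, with exact 95% Poisson intervals that cover counting error only. Endogenous Sox2 has 17 peaks and Halo-Sox2 8, but both have 7 places, and Halo-Sox2D has 13.

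The block was rich in peaks for its length. The genome was divided into 4938 tiles of 550 kb, of which 46.4% held an endogenous Sox2 peak, 50.1% a Halo-Sox2 peak, 59.9% a Halo-Sox2D peak and 12.3% a Halo-Sox2M peak. A tile held a mean of 1.37 endogenous Sox2 peaks, and the 17 of the block (exact 95% Poisson interval 9.90 to 27.2) were 12.4 times that mean, a number that 10 tiles reached or passed (0.203%). The 8 Halo-Sox2 peaks (3.45 to 15.8) were 6.43 times the mean of 1.24, with 1.09% of tiles at or above them. The 14 Halo-Sox2D peaks (7.65 to 23.5) were 5.13 times the mean of 2.73, with 2.57% of tiles at or above them. By places the ratios lay closer together, at 7.66 for endogenous Sox2, 6.70 for Halo-Sox2 and 5.41 for Halo-Sox2D, with 0.608, 1.07 and 1.94% of tiles at or above the block. The 11 stretches of 100 kb where some library had at least 15 peaks all lay outside the block. Neighbouring peaks are not independent, so the Poisson intervals are too narrow, and differences between the libraries were not tested. Tiles were not filtered for sequence to which reads can map, so the tile means may be too low. The block, unlike the tiles, was chosen with earlier results of these data in view. Its ratios and ranks therefore describe it and do not test it.

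Halo-Sox2M had 0 peaks among its 1711 in the block, which allows a share of up to 0.175% of its list by the limit of 3 counts, and of up to 0.224% by the Wilson interval used for the other lists. The Halo-Sox2 share was 0.122% (0.0618 to 0.241%) and the Halo-Sox2D share 0.101% (0.0603 to 0.170%), both below either limit. The endogenous Sox2 share was 0.238% (0.148 to 0.380%), above both limits but with an interval that reaches below them. A list of 1711 peaks would hold 4.07 peaks in the block with the endogenous Sox2 share, 2.09 with the Halo-Sox2 share and 1.73 with the Halo-Sox2D share. The first of these lies above the limit of 3 counts and the exact Poisson limit of 3.69, and the other 2 lie below both. A lower share of Halo-Sox2M in the Nanog cluster than of Halo-Sox2 was therefore not detectable at this list length. The value of 4.07 rests on the whole lists. Of the 1711 Halo-Sox2M peaks, 1409 lay on the tiled chromosomes, and 954 of those outside the peak-rich stretches, which the block does not touch. For endogenous Sox2 these numbers were 6812 and 6364 of 7153. The value may thus be too high for sequence like that of the block. A shortfall of Halo-Sox2M against endogenous Sox2 was therefore not established. Lack of a Halo-Sox2M peak was also the common state, since 87.7% of the tiles had none.

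Peaks lay close to gene ends more often for endogenous Sox2 in the block than in its whole list. Of its 17 peaks, 8 had an end of a protein-coding gene within 1 kb (47.1%, 26.2 to 69.0%), against 6.34% over the genome. All 8 came from 2 places, 4 peaks each in the Nanog promoter and upstream of Phc1, so they do not count as 8 independent events. For Halo-Sox2 3 of 8 peaks lay that close (37.5%, 13.7 to 69.4%, against 10.2%), and they came from the same 2 places. The ends of Slc2a3 were those of its whole annotated span, so peaks near the ends of shorter transcripts would not be counted. For Halo-Sox2D 3 of 14 did (21.4%, 7.57 to 47.6%, against 21.3%), at Phc1 and Dppa3. Halo-Sox2M, with 11.0% of its list that close, had no peak in the block.

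Among 25 other genes of the pluripotent state, listed for comparison and assigned in the same way, 19 had an endogenous Sox2 peak, 18 a Halo-Sox2 peak, 19 a Halo-Sox2D peak and 1 a Halo-Sox2M peak. The median number of peaks was 3, 1, 2 and 0 in that order, and the medians over the 5 genes of the cluster were the same. Over all protein-coding genes the median was 0 in each library. Of those genes, 14.9% had an endogenous Sox2 peak, 17.2% a Halo-Sox2 peak, 32.5% a Halo-Sox2D peak and 3.35% a Halo-Sox2M peak. The background of Halo-Sox2D was thus the highest, and 1 gene of 25 for Halo-Sox2M does not show a share above its background. The genes of that list with most peaks were Tbx3 (1 endogenous Sox2, 7 Halo-Sox2 and 16 Halo-Sox2D peaks), Sox2 itself (7, 5 and 8, with 2 Halo-Sox2M peaks) and Esrrb (13, 2 and 7). Phc1, with 7, 4 and 2, lay between these and Nanog, with 4, 1 and 4. The nearest gene was taken at any distance, so such counts also depend on how far apart neighbouring genes lie. The list was drawn up with earlier results of these data known and gives no independent support.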

How the data were processed

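ChIP-exo peak lists of 4 libraries, 1 per group, were used. The submitters' processing notes name Bowtie2 and mm10. For the peak caller, its threshold, the read filters and reads that map more than once, the sources used here give nothing. In the files the authors deposited stand chromosome, start and end of each peak (1 to 20 bp wide) with no score or read number, so depth is unknown and list length cannot be separated from depth or threshold. Starts are given here counted from 1.

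Peaks were assigned, with no limit of distance, to the nearest protein-coding gene body (RefSeq table of GRCm38.p6, whose chromosomes have the coordinates of mm10; all named genes and all 25 comparison genes matched). Places were made by single linkage of centres within 500 bp. Shares carry 95% Wilson intervals and counts exact Poisson intervals (scipy 1.17.1); both cover counting error only. A count of 0 was given an upper limit of 3 counts. Tiles of 550 kb ran from the start of each chromosome to its last gene or peak. Promoter windows (250 bases before to 50 after a start) and strands came from the RefSeq promoter table, in which 2 of the 5 genes matched. Letters were matched exactly on both strands. Python 3.11.15, numpy 2.4.6 and pandas 2.3.3 were used, and the code was tested on simulated lists.

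The genes named were the 5 of the cluster with each of their peaks, the other protein-coding genes of the block by count (not all are reported here), and the 3 comparison genes with most peaks. The members, lists and tests were chosen with earlier results of these data known. Sequence outside the promoter windows was not analysed here. Alternatives were other block bounds, gene windows, linking distances and merged peaks.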

Additional observations from a re-analysis of the deposited data

How the results depend on the processing

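No stricter threshold was run, because the lists hold no score, and no library could be left out, because each group has 1. No paired analysis was possible because each group has 1 library. Of 54 recalculated counts for the block, 48 stayed within 1.5 times the value reported. Of the other 6, within 5 kb of a gene end there were 13 endogenous Sox2 and 7 Halo-Sox2D peaks in place of 8 and 3. Within 50 bp, 4 endogenous Sox2 peaks had a Halo-Sox2 centre in place of 9, 3 had a Halo-Sox2D centre in place of 6, and 1 Halo-Sox2 peak had a Halo-Sox2D centre in place of 2. Within 1000 bp, 2 Halo-Sox2D peaks had a Halo-Sox2 centre in place of 1. These shifts follow from the wider or narrower distance. Shared places numbered 3 by overlap or within 50 bp, 4 within 200 bp and 5 within 1000 bp, where the peaks of Halo-Sox2 and Halo-Sox2D in Slc2a3 also met. Joining peaks of a library within 20 bp left 13 endogenous Sox2, 8 Halo-Sox2 and 13 Halo-Sox2D peaks. Halo-Sox2M had 0 peaks under every bound and window tried. Of 80 counts for single genes, 10 moved by over 1.5 times, among them Gdf3 (3 endogenous Sox2 peaks within 20 kb), Nanog (3 Halo-Sox2 peaks within 50 kb, 2 Halo-Sox2D peaks within 5 kb) and Slc2a3 (6 endogenous Sox2 and 6 Halo-Sox2D peaks within 50 kb). Outside bins with 15 or more peaks, chosen after seeing the data, the genome background of endogenous Sox2 peaks with a Halo-Sox2 centre was 29.8% in place of 32.4%, which puts it below the interval of the block (31.0 to 73.8%), and with a Halo-Sox2M centre 2.80% in place of 6.88%.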
